A study of Mus musculus with 4 samples.

Results

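The myosin heavy chain genes Myh1, Myh2, Myh3, Myh4, Myh6, Myh7, Myh8, Myh9, Myh10 and Myh11 were followed in C2C12 cells, mouse myoblasts that fuse into contractile myotubes when they differentiate. They were found by gene symbol in the authors' deposited table, where 9 of the 10 had a row, out of 20193 named genes in all. Myh6 had no row under its symbol and was not analysed here. Each of the 9 was read by 1 probe set. The Myolinc line had been transfected with Myolinc, a long noncoding RNA, in the plasmid pcDNA3.1/Zeo(+), and was kept as a polyclonal line. The empty vector cells carried the same plasmid without an insert. Both groups shared growth medium, transfection with Lipofectamine 2000 and Zeocin selection, and the labels speak of selected clones in both. No second line of either kind is named, so the effects of a line and of its plasmid cannot be told apart. Total RNA of 2 biological replicates a group was hybridised to 4 Affymetrix arrays. The labels name no separate transfections for the replicates, and p-values thus reflect the spread of these 4 arrays alone, part or all of which may be technical.

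Myosin heavy chains form the motor and tail of class II myosins, which pull on actin filaments. Sarcomeric heavy chains build the thick filaments of striated muscle, and vertebrate muscle passes from embryonic and perinatal forms to adult fast or slow ones. Myh11 is the smooth muscle form, while Myh9 and Myh10 encode the non-muscle forms IIA and IIB, found in most cells, where they drive adhesion, migration and cytokinesis. In C2C12 cells the sarcomeric genes are known to come on after serum withdrawal, whereas the cells here stayed in growth medium.

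Some genes of the family carry a miRNA gene in an intron, and the arrays held probe sets for the miRNA genes Mir208a and Mir499, which lie within the spans of Myh6 and Myh7b. They are shown because Mir208a gave the reading from within the span of the unmeasured Myh6, and because the miRNAs of the myosin genes are alike in their seeds. Mature sequences from RefSeq (GRCm38.p6) follow, 5′ to 3′, with the seed, bases 2 to 8, in capitals. The host of the first is Myh6, of the second Myh7 and of the last Myh7b.
mmu-miR-208a-3p: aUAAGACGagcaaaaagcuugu
mmu-miR-208b-3p: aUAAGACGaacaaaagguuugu
mmu-miR-499-5p: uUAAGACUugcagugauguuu
The first lies at chr14:54949072-54949093 on the minus strand, the second at chr14:54975710-54975731 on the minus strand and the last at chr2:155622893-155622913 on the plus strand. The 208a and 208b seeds were identical in these letters.

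No myosin heavy chain gene passed the test between the Myolinc line and empty vector cells. All values are log2 readings made by the authors with RMA, so a difference of 1 is a 2-fold difference. The groups were tested with limma across 28944 probe sets, p was adjusted over them by the Benjamini-Hochberg method, and a gene passed at an adjusted p under 0.05. Of the 9 measured genes 0 passed, against 7.93% of all named genes, of which 3.97% passed upward and 3.96% downward. An unadjusted p under 0.05 was found for 1 of the 9 (Myh10), against 26.7% of all named genes. With unnamed control rows kept in the limma fit it was found for 0 of the 9, against 4814 of the 20193 named genes. After array centring it was found for 0 of the 9, against 4607. With limma's variance prior trended and robust it was found for 2 of the 9, against 6108. With the median change of each chromosome removed it was found for 3 of the 9, against 5333. Adjusted p of the members lay between 0.190 and 0.963. With an ordinary linear model 0 of the 20193 named genes passed, so that model could not call a member. Its unadjusted p was under 0.05 for 1 of the 9 (Myh9), against 4577 of the 20193 named genes. The log2 fold changes of the members, as the Myolinc line minus empty vector, were positive for 4 and negative for 5, with a median of -0.019, against 0.018 over all named genes, and the signs of Myh1, Myh3, Myh4, Myh8 and Myh11 turned in at least 1 other setting. The median size of a member's change, without its sign, was 0.0971, against 0.116 over all named genes. In 5 of the 9 genes the groups' arrays were fully apart, against 53.9% of all named genes. Both Myolinc arrays were above both empty vector arrays in 3 (27.9% of all named genes) and below them in 2 (26.0%).

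**Figure D1:**
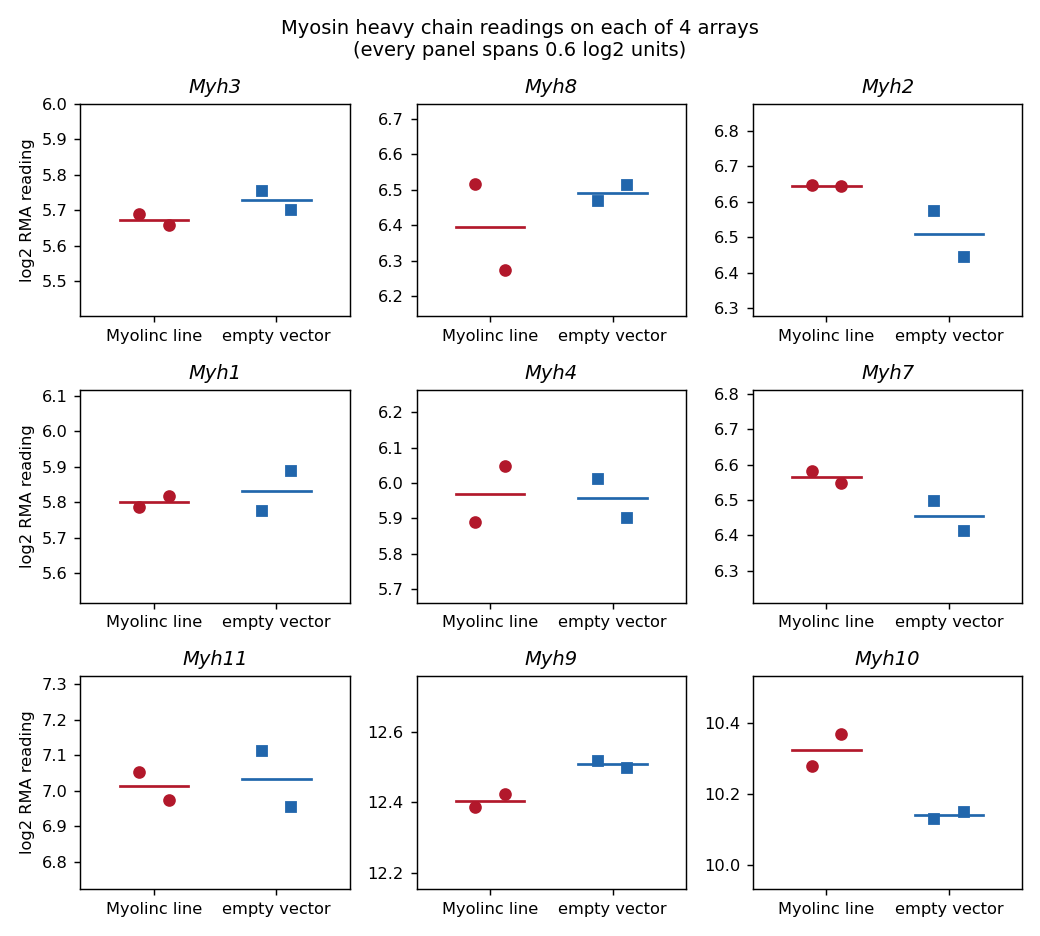
Log2 RMA readings (y axis) of the 9 measured heavy chain genes on each array, with the Myolinc line as red circles left and empty vector as blue squares right; horizontal lines are the means of 2 arrays, and every panel spans the same height on its own range. The groups are apart for Myh2, Myh3, Myh7, Myh9 and Myh10, and the means differ most for Myh10, by 0.19.

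The sarcomeric genes read low in both groups. In bulk RNA, fewer cells of a type and less RNA per cell cannot be told apart. Embryonic Myh3 read 5.69 and 5.66 in the Myolinc line, against 5.75 and 5.70 in empty vector cells. The Myolinc arrays lay below both empty vector arrays, by a small margin (log2 fold change -0.054, SE 0.060, adjusted p = 0.689). Perinatal Myh8 read 6.52 and 6.27 in the Myolinc line, against 6.47 and 6.51 in empty vector cells. Its groups overlapped, with the Myolinc arrays the highest and the lowest of the 4 (-0.097, SE 0.10, adjusted p = 0.669).

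Of the adult fast forms, Myh2, which encodes the IIa chain, read 6.65 and 6.64 in the Myolinc line, against 6.57 and 6.44 in empty vector cells. Both Myolinc arrays were the higher ones, yet the gap to empty vector replicate 1 was smaller than the gap between the empty vector arrays (log2 fold change 0.14, SE 0.072, adjusted p = 0.362). Myh1, the IIx chain, read 5.79 and 5.82 in the Myolinc line, against 5.77 and 5.89 in empty vector cells. The Myolinc arrays lay between the controls (-0.031, SE 0.069, adjusted p = 0.866). Myh4, the IIb chain, read 5.89 and 6.05 in the Myolinc line, against 6.01 and 5.90 in empty vector cells. The Myolinc arrays lay on either side of the controls (0.012, SE 0.087, adjusted p = 0.963), and the sign turned after array centring (-0.029) or a second quantile normalization (-0.049).

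Myh7, the slow fibre chain that is also the beta chain of the heart, read 6.58 and 6.55 in the Myolinc line, against 6.50 and 6.41 in empty vector cells. Both Myolinc arrays were the higher ones (log2 fold change 0.11, SE 0.064, adjusted p = 0.407). Over the 6 sarcomeric genes, readings ran from 5.66 to 6.65, all below the median over probe sets, 7.27. Their 95% intervals together reached from -0.37 to 0.33 on the log2 scale, or from 0.771-fold to 1.26-fold, and no interval of the 6 reached beyond those bounds. Low readings on such arrays hold a share of background, which shrinks a fold change. Readings of different probe sets depend on their own probes, so the genes are not ranked by level. The skeletal muscle genes are close in sequence, and whether their probes share targets was not tested.

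Myh11, the smooth muscle chain, read 7.05 and 6.97 in the Myolinc line, against 7.11 and 6.95 in empty vector cells. The groups overlapped, with the Myolinc arrays between the controls (log2 fold change -0.019, SE 0.083, adjusted p = 0.934). Of 9 smooth muscle markers 4 fell, 0 rose and 5, like Myh11, did not pass. Over all named genes 3.96% fell and 3.97% rose. Of the 5, Des (0.33), Myocd (0.32) and Synm (0.014) had positive changes, and Acta2 (-0.11) and Smtn (-0.089) negative ones. Both Myolinc arrays lay above both empty vector arrays for Des and Myocd (limma adjusted p = 0.0550 and 0.352). Tagln, an actin-binding protein also called transgelin, read 10.35 and 10.39 in the Myolinc line, against 11.84 and 11.90 in empty vector cells, 2.83-fold lower in the Myolinc line. The last of these was stored with 3 digits. Cnn1 (-0.67), Lmod1 (-0.63) and Actg2 (-0.51), which encode calponin, leiomodin and the enteric smooth muscle actin, fell too, with adjusted p from 0.00713 to 0.0303 for the 4 genes. With the control rows in the fit Tagln alone of the 4 passed. With 1 array left out the log2 fold change lay between -1.53 and -1.47 for Tagln and between -0.70 and -0.63 for Cnn1. It lay between -0.69 and -0.56 for Lmod1 and between -0.55 and -0.48 for Actg2.

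The non-muscle chains were the members read well above the array median. Myh9 read 12.39 and 12.42 in the Myolinc line, against 12.52 and 12.50 in empty vector cells. Both Myolinc arrays were the lower ones, by more than the spread within a group, but the change did not pass (log2 fold change -0.10, SE 0.058, 95% interval -0.26 to 0.056, adjusted p = 0.396). Myh10 read 10.28 and 10.37 in the Myolinc line, against 10.13 and 10.15 in empty vector cells. Both Myolinc arrays were the higher ones, 1.14-fold on average (log2 fold change 0.19, SE 0.065, 95% interval 0.0094 to 0.36, limma adjusted p = 0.190). In the authors' deposited table Myh10 has a log2 fold change of 0.185 and a p-value of 0.05622, which is not stated to be adjusted. A change of that size or more was measured for 32.8% of named genes.

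Myh10 was the member whose call depended on the model. It passed upward once limma's variance prior was trended and robust (adjusted p = 0.0418), where 20.8% of named genes passed. It also passed in a fit of the probe sets at or above the median level (adjusted p = 0.0483), where 39.9% passed and Myh9 and Myh10 were the members tested. In the other settings its adjusted p lay above the threshold, up to 0.495 after array centring. Chromosome 11, which holds Myh10 and the skeletal muscle cluster, had a median log2 fold change of -0.11 over its 890 expressed genes, those at or above the median level. With that median removed, Myh10 had a log2 fold change of 0.30 (limma adjusted p = 0.0842). Myh3, Myh1 and Myh8 then turned positive, at 0.058, 0.081 and 0.015. Myh2 and Myh4, positive before, were then at 0.25 and 0.12 (limma adjusted p = 0.142 and 0.475). Myh7, on chromosome 14, was at 0.20 with the median of that chromosome removed (limma adjusted p = 0.168). Myh9 and Myh11, with the medians of their chromosomes removed, stayed negative, at -0.077 and -0.17.

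The opposite directions of the non-muscle chains were set side by side after their values had been seen. The log2 reading of Myh10 minus that of Myh9 was -2.11 and -2.05 in the Myolinc line, against -2.39 and -2.35 in empty vector cells. The size of this difference includes the probes of both probe sets, and only its change between the groups can be read. It differed by 0.29, with an SD of 0.039 in the Myolinc line and 0.030 in empty vector cells (n = 2 each), and the groups did not overlap. With 2 arrays a group an exact permutation test cannot go below its two-sided p = 0.333, which is what it gave.

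**Figure D2:**
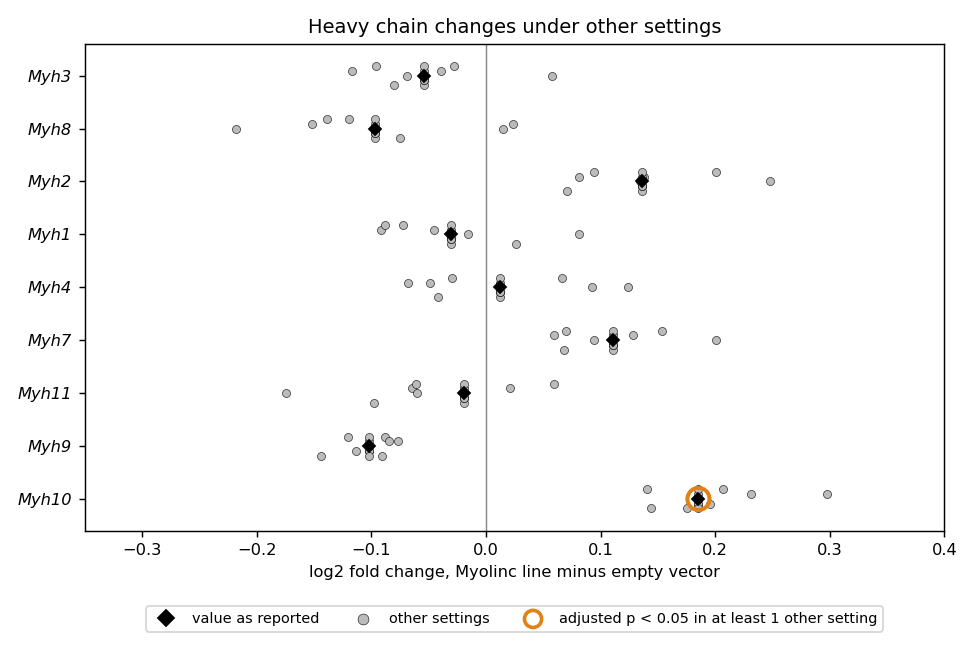
Log2 fold change (x axis, Myolinc line minus empty vector) of each heavy chain gene as reported (black diamonds) and under the other normalizations, models and left-out arrays (grey points); the orange ring marks a gene past an adjusted p of 0.05 in at least 1 of them. Myh10 carries the ring and stays between 0.14 and 0.30, Myh9 stays between -0.14 and -0.077, and points of Myh1, Myh3, Myh4, Myh8 and Myh11 fall on both sides of 0.

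The remaining class II heavy chain genes did not pass either. Myh7b, an ancient striated muscle chain, had a log2 fold change of 0.020 (SE 0.067), and Myh13, the extraocular muscle chain, of 0.052 (SE 0.11). Myh14, the non-muscle IIC chain, had -0.036 (SE 0.091) and Myh15 had -0.057 (SE 0.075). The signs of Myh7b (-0.018) and Myh13 (-0.0012) turned after a second quantile normalization, and that of Myh7b also after array centring. Of the intronic miRNA genes, Mir208a read 5.12 and 5.17 in the Myolinc line, against 5.20 and 5.07 in empty vector cells. Mir499 read 5.47 and 5.21 in the Myolinc line, against 5.54 and 5.25 in empty vector cells. Both overlapped between the groups (adjusted p = 0.963 and 0.891). Whether these probes read the mature miRNA or the host transcript was not tested.

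Light chains, which bind the neck of the heavy chain and set its activity, were read beside the heavy chains. Their counts stand beside 3.97% of all named genes that rose and 3.96% that fell. Among 7 light chains of striated muscle 1 rose, 0 fell and 6 did not pass (median log2 fold change 0.061). Myl1, the fast skeletal essential light chain, read 6.76 and 6.79 in the Myolinc line, against 5.74 and 5.37 in empty vector cells. It was 2.34-fold higher in the Myolinc line (log2 fold change 1.23, SE 0.14, adjusted p = 0.0280), from readings below the array median. Its partners in fast fibres, Mylpf (0.19, SE 0.13), Myh1, Myh2 and Myh4, did not pass. With 1 array left out the log2 fold change of Myl1 lay between 1.04 and 1.41. Myl1 did not pass with the 6612 unnamed control rows in the fit.

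Of 4 smooth muscle and non-muscle light chains 2 rose, against 3.97% of all named genes, 1 fell, against 3.96%, and 1 did not pass. Myl9, a regulatory light chain of smooth muscle and non-muscle myosin, read 11.35 and 11.29 in the Myolinc line, against 12.41 and 12.41 in empty vector cells. It was 2.13-fold lower in the Myolinc line (log2 fold change -1.09, SE 0.060, adjusted p = 0.0111). Myl12b, another regulatory light chain of these myosins, read 12.48 and 12.55 in the Myolinc line, against 11.67 and 11.72 in empty vector cells, 1.77-fold higher (0.82, SE 0.064, adjusted p = 0.0176). Myl6b, an essential light chain, read 8.53 and 8.55 in the Myolinc line, against 7.72 and 7.70 in empty vector cells, 1.78-fold higher (0.83, SE 0.057, adjusted p = 0.0144). Myl6, the common essential light chain, had a log2 fold change of 0.020 (SE 0.062, adjusted p = 0.902). Myl12b has a near-identical copy, Myl12a, so the share of each in that reading is uncertain. With 1 array left out the log2 fold change lay between -1.12 and -1.06 for Myl9 and between 0.78 and 0.86 for Myl12b. For Myl6b it lay between 0.82 and 0.84.

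**Figure D3:**
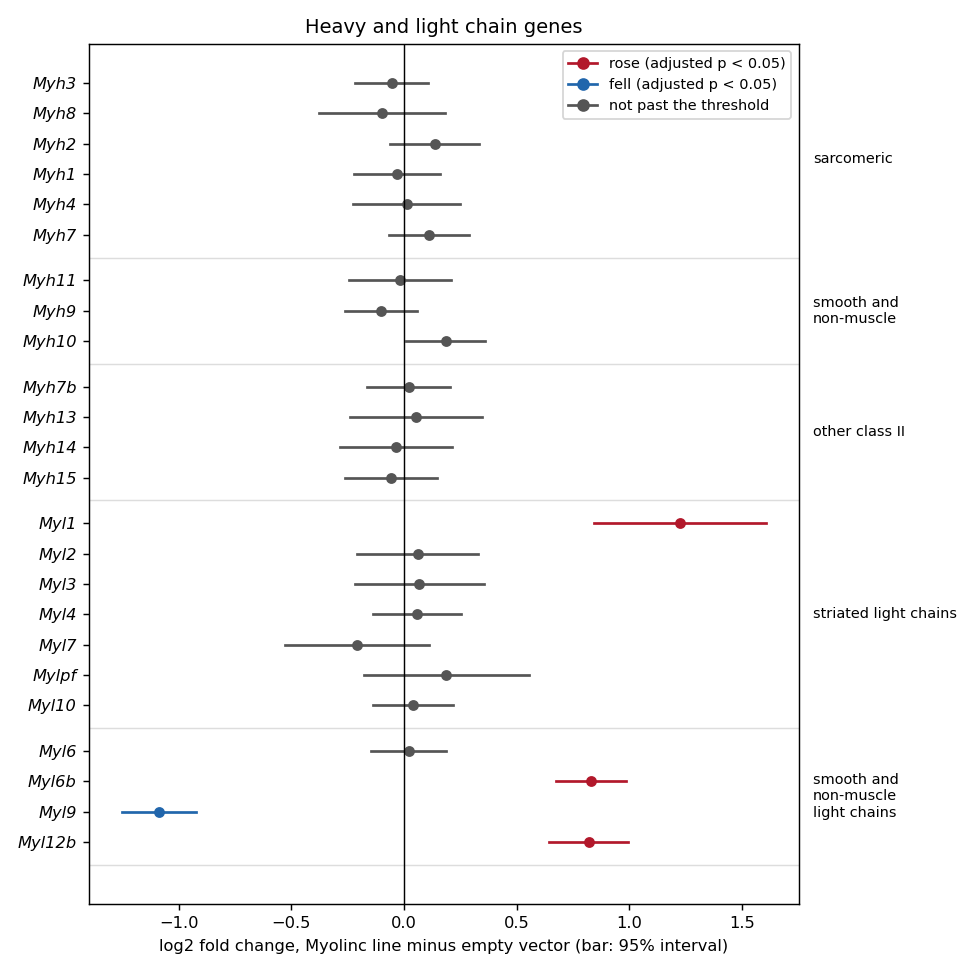
Log2 fold change (x axis, Myolinc line minus empty vector) with its 95% interval for 13 class II heavy chain genes and 11 light chain genes; red rose, blue fell and grey did not pass the adjusted threshold. The 13 heavy chain points lie between -0.10 and 0.19, whereas Myl1, Myl6b and Myl12b lie to the right and Myl9 to the left.

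Proteins that bind or build the thick filament were looked at beside the heavy chains. Over all named genes 3.97% rose and 3.96% fell. Of 9 thick filament and M-band genes 2 rose, 0 fell and 7 did not pass (median log2 fold change 0.086). Ttn, the giant spring that spans each side of the sarcomere, read 9.42 and 9.80 in the Myolinc line, against 8.06 and 8.35 in empty vector cells, 2.64-fold higher (SE 0.18, adjusted p = 0.0320). Myom2, an M-band protein that links myosin filaments, read 7.82 and 7.93 in the Myolinc line, against 6.59 and 6.90 in empty vector cells, 2.19-fold higher (SE 0.13, adjusted p = 0.0272). Of 12 folding and turnover genes 2 rose, 0 fell and 10 did not pass (median log2 fold change 0.048). Smyd1, a methyltransferase of striated muscle needed for thick filament assembly, read 9.93 and 9.86 in the Myolinc line, against 6.77 and 6.82 in empty vector cells, 8.59-fold higher (SE 0.063, adjusted p = 0.00292). Trim55, a sarcomere-associated ubiquitin ligase also called MuRF2, read 9.15 and 9.51 in the Myolinc line, against 7.79 and 8.07 in empty vector cells, 2.65-fold higher (SE 0.17, adjusted p = 0.0298). The SEs are on the log2 scale. With 1 array left out, the lowest log2 fold change was 1.21 for Ttn and 0.97 for Myom2. It was 3.07 for Smyd1 and 1.22 for Trim55. With the unnamed control rows in the fit, Smyd1 passed and Myom2, Ttn and Trim55 did not.

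Among 23 genes that set myosin II activity, such as kinases and phosphatase subunits, 1 rose, 0 fell and 22 did not pass (median log2 fold change -0.020). That lies near the share over all named genes, of which 3.97% rose and 3.96% fell. Array centring ended the 1 call, and so did keeping the control rows. With 1 array left out the log2 fold change of that gene lay between 0.45 and 0.58.

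Most fibre-type partners of the heavy chains did not pass. Of 6 slow fibre genes 2 rose, 0 fell and 4 did not pass, and of 8 fast fibre genes 2 rose, 0 fell and 6 did not pass. Over all named genes 3.97% rose and 3.96% fell. The slow list held 3 positive and 3 negative changes. Among the negative ones were the slow troponin gene Tnnc1 (-0.39, limma adjusted p = 0.111) and Atp2a2 (-0.23, adjusted p = 0.107). For both, the Myolinc arrays lay below both empty vector arrays. The slow troponin genes Tnnt1 (0.66, SE 0.099) and Tnni1 (0.50, SE 0.067) rose, and so did the fast troponin gene Tnnt3 (0.61, SE 0.088). Actn3, the alpha-actinin of fast fibres, was 3.19-fold higher in the Myolinc line (1.67, SE 0.056), 1 of its empty vector readings being stored with 3 digits. Adjusted p of the 4 rising genes lay between 0.00659 and 0.0416. With 1 array left out the log2 fold change lay between 0.56 and 0.76 for Tnnt1 and between 0.45 and 0.55 for Tnni1. It lay between 0.52 and 0.69 for Tnnt3 and between 1.67 and 1.68 for Actn3. With the control rows in the fit Actn3 alone of the 4 passed. The heavy chains of the same fibre types, slow Myh7 and fast Myh1, Myh2 and Myh4, did not pass.

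**Figure D4:**
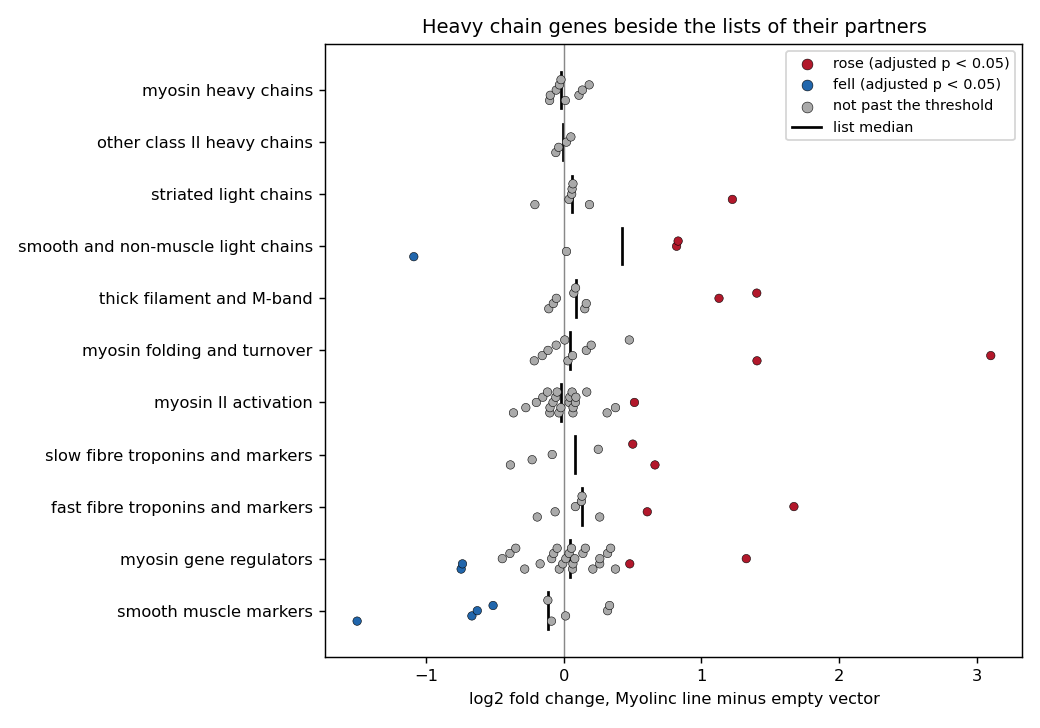
Log2 fold change (x axis, Myolinc line minus empty vector) of each measured gene in the heavy chain list and in 10 lists of related genes; red rose, blue fell, grey did not pass, and black bars are list medians. All points of the 9 heavy chain genes are grey, the farthest at 0.19, while 8 of the related lists hold red points and 3 hold blue ones.

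Transcription regulators known to act on myosin genes were mixed. Of 28 measured regulators 2 rose, 2 fell and 24 did not pass (median log2 fold change 0.048). Over all named genes 3.97% rose and 3.96% fell. An unadjusted limma p under 0.05 was found for 12 of the 28, against 26.7% of all named genes. Srf, the serum response factor that binds CArG boxes, read 10.54 and 10.63 in the Myolinc line, against 11.33 and 11.33 in empty vector cells (-0.74, SE 0.065, adjusted p = 0.0203). Tbx15, a T-box factor of glycolytic fibres in mice, read 8.97 and 9.04 in the Myolinc line, against 9.63 and 9.84 in empty vector cells (-0.73, SE 0.095, adjusted p = 0.0327). Ppargc1a, the coactivator PGC-1alpha of slow and oxidative fibres, read 7.25 and 7.42 in the Myolinc line, against 5.89 and 6.12 in empty vector cells (1.33, SE 0.11, adjusted p = 0.0196). Of the 28 changes, 16 were positive and 12 negative. Among the regulators that did not pass, Myog had a log2 fold change of 0.065 (SE 0.095) and Myod1 of 0.067 (SE 0.062). Tead4 (-0.45), Tead1 (-0.39), Nfatc1 (-0.35) and Myf5 (0.38) lay near the threshold, with limma adjusted p from 0.053 to 0.058. For each of them the groups' arrays were fully apart, as for 53.9% of all named genes. With 1 array left out the log2 fold change lay between -0.79 and -0.70 for Srf and between -0.84 and -0.63 for Tbx15. For Ppargc1a it lay between 1.21 and 1.44. Srf, Tbx15 and Ppargc1a did not pass with the control rows in the fit.

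Because factors of CArG, MCAT and E-box sequences are among those regulators, the 250 bases before the start of each heavy chain gene were searched for these motifs on both strands. RefSeq promoter sequences (GRCm38.p6) matched 9 of the 10 members, Myh6 included, with 2 promoters for Myh7 and 1 for each other gene matched. Myh11, the smooth muscle chain, had no such sequence and was not searched. A CArG box occurred in 1 of the 9, Myh4, against 1.47% of all promoters, and the MCAT motif of TEAD factors (CATTCC) in 5 of the 9, against 12.6%. E-boxes (CANNTG), bound by MyoD-type factors, occurred in 7 of the 9, against 66.2%, and the MEF2 box in 3 of the 9, against 2.92%. The letters TATAAA occurred in 5 of the 9, against 12.4%, and CCAAT in 5 of the 9, against 33.8%. In Myh1, Myh4 and Myh8 the MEF2 match overlapped a TATAAA match. Such matches describe letters and are not binding sites. The promoters of Myh3 and of the non-muscle chains Myh9 and Myh10 are shown, a developmental sarcomeric gene beside the members with high readings. Each is given 5′ to 3′ on the gene's strand with E-boxes and MCAT motifs in capitals.
Myh3: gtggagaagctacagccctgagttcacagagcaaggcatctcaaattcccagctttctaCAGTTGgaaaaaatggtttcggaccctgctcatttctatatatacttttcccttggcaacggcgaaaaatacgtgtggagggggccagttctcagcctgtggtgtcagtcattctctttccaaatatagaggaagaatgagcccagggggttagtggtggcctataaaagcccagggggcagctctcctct
Myh9: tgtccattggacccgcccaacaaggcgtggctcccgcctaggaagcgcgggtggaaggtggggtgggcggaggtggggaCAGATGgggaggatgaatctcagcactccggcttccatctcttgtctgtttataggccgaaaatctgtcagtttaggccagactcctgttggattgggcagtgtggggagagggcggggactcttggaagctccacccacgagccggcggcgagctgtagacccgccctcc
Myh10: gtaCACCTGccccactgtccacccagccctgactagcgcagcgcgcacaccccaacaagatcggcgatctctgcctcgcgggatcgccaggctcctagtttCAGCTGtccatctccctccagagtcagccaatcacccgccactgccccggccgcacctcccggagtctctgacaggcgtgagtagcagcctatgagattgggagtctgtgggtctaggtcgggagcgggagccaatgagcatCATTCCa
They lie at chr11:67078050-67078299 on the plus strand, chr15:77842176-77842425 on the minus strand and chr11:68691665-68691914 on the plus strand. In these windows Myh3 and Myh9 hold 1 E-box each, and Myh10 holds 2 E-boxes and, 7 bases before the start, 1 MCAT motif.

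Markers were checked for what the cells were. Their counts stand beside 3.97% of all named genes that rose and 3.96% that fell. All 8 myoblast markers lay above the array median, from 9.73 to 13.06 over the arrays. Of these 2 rose, Itga7 (1.23, SE 0.063), an integrin subunit, and Cdh15 (0.49, SE 0.065), M-cadherin. For Itga7, as for Col1a1 below, the reading of empty vector replicate 2 was stored with 3 digits. Averages over the 8 were 11.63 to 11.66 in the Myolinc line, against 11.31 to 11.31 in empty vector cells. Of the myotube markers, which include Myh3, 5 of 9 lay above the median, and 2 rose, 1 fell and 6 did not pass. Besides Tnnt3, Chrng, the fetal acetylcholine receptor subunit, rose (1.17, SE 0.088, adjusted p = 0.0170), and Acta1, skeletal actin, fell (-0.73, SE 0.089, adjusted p = 0.0308). The 6 endothelial markers, a check for another cell type, read between 5.79 and 7.38, and 0 of them passed. On average over the arrays 0 of these 6 lay above the median. Of other cell types, 2 of 6 adipocyte markers (4.98 to 10.51) and 2 of 6 leukocyte markers (5.00 to 8.45) lay above it. So did 4 of 9 fibroblast markers (3.98 to 10.41). Of the 6 adipocyte markers 0 passed. Of 6 leukocyte markers 1 fell, Cd68 (-0.46, SE 0.056, adjusted p = 0.0308). Of 9 fibroblast markers the collagen genes Col3a1 rose (0.69, SE 0.096, adjusted p = 0.0371) and Col1a1 fell (-1.25, SE 0.061, adjusted p = 0.00939), and 7 did not pass. Cardiac markers gave 2 falls in 11, Nppb (-1.41, SE 0.15), a natriuretic peptide, and Actc1 (-0.54, SE 0.063), the cardiac actin. The averages over the cardiac list were 7.71 to 7.79 in the Myolinc line, against 7.95 to 8.08 in empty vector cells, and of the 9 cardiac genes besides these 2, 0 passed. The part of such shifts in the heavy chain readings was not tested. With 1 array left out the log2 fold change lay between 1.19 and 1.26 for Itga7, 0.45 and 0.53 for Cdh15, and 1.08 and 1.26 for Chrng. It lay between -0.81 and -0.66 for Acta1, -0.57 and -0.50 for Actc1, and -1.57 and -1.25 for Nppb. The bounds were -0.47 and -0.45 for Cd68, 0.57 and 0.80 for Col3a1, and -1.29 and -1.22 for Col1a1. With the control rows in the fit Itga7, Chrng and Col1a1 alone of these marker genes passed.

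Genes next to the heavy chains were also read, up to 3 named genes on each side in the RefSeq gene order. Of 30 neighbours 2 rose, against 3.97% of all named genes, 3 fell, against 3.96%, and 25 did not pass. Beside the skeletal cluster Sco1, a copper chaperone of cytochrome oxidase, fell (-0.40, SE 0.066, adjusted p = 0.0493), and beside Myh10 the dynein regulator gene Ndel1 fell (-0.40, SE 0.057, adjusted p = 0.0377). Ngdn, beside Myh7, fell (-0.40, SE 0.056, adjusted p = 0.0373). Foxred2, beside Myh9, rose (0.54, SE 0.073, adjusted p = 0.0354), as did 0610037P05Rik, beside Myh11 (0.46, SE 0.060, adjusted p = 0.0340). The 3 falls and the rise of 0610037P05Rik did not pass with chromosome medians removed. Sco1, Foxred2 and 0610037P05Rik did not pass after array centring, and none of the 5 passed with the control rows in the fit. With 1 array left out the log2 fold change lay between -0.45 and -0.35 for Sco1 and between -0.42 and -0.39 for Ndel1. It lay between -0.41 and -0.39 for Ngdn, 0.47 and 0.60 for Foxred2, and 0.43 and 0.49 for 0610037P05Rik.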

How the data were processed

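Expression values are log2 values that the authors deposited, for which the submitters' processing notes name RMA and limma, both without version. The authors' deposited table adds for each named gene its log2 fold change and a p-value. A limma fit of the 35556 rows gave unadjusted p within 8.13e-05 of that column. The build and probe annotation are not stated in these sources. Of the rows, 6612 without a name and with the lowest numbers were treated as controls and not fitted. The remaining 28944 probe sets were fitted with limma 3.58.1 (lmFit, eBayes, defaults) in R 4.3.3, two-sided, with the Myolinc line over empty vector as the fold change, on 2 residual and 2.19 prior degrees of freedom. Array medians lay between 7.24 and 7.35, and the number of arrays limits the precision. For empty vector replicate 2, 81 named genes had values stored with 3 digits, none of them a heavy chain gene. Symbols matched RefSeq (GRCm38.p6) for 19457 genes. Figures used matplotlib 3.10.9 in Python 3.11.15. The fit was tested on simulated data.

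Named were all members, the remaining class II chains, up to 4 passing genes of each list with the smallest p, and passing neighbours. A few such genes are left unreported. Further list genes given as values were chosen after their values were seen. They are Mylpf, Myl6, Myog, Myod1, Tead1, Tead4, Nfatc1, Myf5, Tnnc1, Atp2a2 and the smooth muscle markers that did not pass. The difference between Myh10 and Myh9 was also chosen after its values were seen. The rule's search for genes of like pattern applied to passing members, of which there were none. The members, the 18 lists and the tests were chosen with earlier results of these data known. Other settings were the replicate number as a block, another variance prior, a filter on level, array scaling, the rows fitted, left-out arrays, thresholds of 0.1 and 0.01, an ordinary linear model, removed chromosome medians and recovered digits, and, added after the data were seen, adjustment over named genes.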

Additional observations from a re-analysis of the deposited data

How the results depend on the processing

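The count of 0 heavy chain genes became 1, Myh10, when limma's variance prior was trended and robust. It was also 1, Myh10, when probe sets under the median level were removed. In the other settings with all arrays kept it was 0, among them an ordinary linear model in which 0 of all genes passed. The count over all genes, 1602, was 136 with the replicate number as a replicate block, 4209 with the trended prior, 4196 without the probe sets under the median level, 2490 with named genes fitted alone, 287 with the control rows included, 3069 at a threshold of 0.1, 90 at 0.01 and 0 with an ordinary linear model (4577 at an unadjusted p under 0.05). Leaving out 1 array gave 0 to 1468. For the prior, the block and the control rows the cause was not tested. Same-numbered arrays deviated together with a correlation of 0.30 across probe sets, but the labels give them no shared origin. In the replicate block 0 heavy chain genes passed (Myh10 adjusted p = 0.195), and of the named light chains Myl9 passed while Myl1, Myl6b and Myl12b did not.

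Signs of small changes turned, none of them a call. With chromosome medians removed the log2 fold change of Myh1 was 0.081, of Myh3 0.058, of Myh8 0.015 and of Mir499 0.091. After a second quantile normalization Myh4 was -0.049, Myh7b -0.018, Myh13 -0.0012 and Mir208a -0.064, and after array centring Myh4 was -0.029, Myh7b -0.021 and Mir208a -0.031. With 1 array left out the log2 fold change of Myh1 lay between -0.088 and 0.027, that of Myh4 between -0.068 and 0.092, that of Myh8 between -0.22 and 0.024, that of Myh11 between -0.098 and 0.059 and that of Myh7b between -0.025 and 0.065. For Myh13 it lay between -0.054 and 0.16, for Myh14 between -0.14 and 0.064, for Myh15 between -0.12 and 0.0079, for Mir208a between -0.056 and 0.076 and for Mir499 between -0.20 and 0.093. Most of these genes read below the median level, which limits them. For the 35 passing genes of other lists and neighbours, many settings repeat the same log2 fold change. Direction could turn only after array scaling, removed chromosome medians, left-out arrays or recovered digits, and it did not turn in those. Many of the 35 no longer passed with the control rows in the fit or at a threshold of 0.01. None passed in the ordinary linear model, where 0 of all genes did.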
